A study of Homo sapiens with 9 samples.

Results

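KHM-5M thyroid cancer cells were compared after 24 h with 0.3 μM of the ETS inhibitor YK-4-279 and after 24 h with the vehicle DMSO. The comparison took all samples labelled with these 2 treatments, which were 3 of each, or 6 of the 9 samples of the series, and used every gene that passed a filter on low counts. The other 3 samples, kept for 24 h with 1 μM YK-4-279, were used to ask how far the higher dose moved each gene beyond the lower dose. That comparison uses the same 0.3 μM samples with opposite sign. Noise in them therefore moves the change from DMSO and the change between doses in opposite directions. The samples share 1 cell line and 1 time point, and the labels do not say whether they came from separate cultures, so p-values measure the spread between these samples, which may be technical. RNA was measured in bulk, in which fewer cells of a type and less RNA per cell cannot be told apart.

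YK-4-279 was developed to block the binding of an ETS family fusion protein to its partner RNA helicases, and it has since been used against tumours that depend on other ETS factors. ETS factors bind a short GGAA core in promoters and carry growth signals from the RAS and ERK kinases to genes of proliferation and invasion. The gene groups examined were chosen with earlier results of these data known. Among them were targets of NF-kB, a transcription factor of inflammatory cytokines and of its own inhibitors. Others were the unfolded protein response, which raises chaperones of the endoplasmic reticulum, and the genes that copy and segregate chromosomes.

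The deposited counts summed to 16903251 to 17966028 per sample in these 6 samples, and a count of 0 therefore allows up to 3 counts, or 0.167 to 0.177 counts per 1e6 counts of the library (CPM), a limit that covers counting error only. Values below are CPM with library sizes normalized by TMM, and a change is the log2 fold change of 0.3 μM minus DMSO. Mitochondrially encoded genes took 2.84% to 3.39% of the counts. The labelled cell type was checked against its markers. PAX8, a thyroid lineage factor, had 2809 to 3660 counts, and the epithelial keratins KRT8 and KRT18 had at least 7028 in every sample. The thyroid lineage factors NKX2-1 and FOXE1 were low, with 2 to 10 and 7 to 25 counts. HHEX and GLIS3, also listed for the thyroid lineage, had 231 to 312 and 519 to 653 counts. Of genes of thyroid hormone synthesis and its control, DUOX1 had 22 to 34 counts and SLC26A4 14 to 30. TG (0 to 4 counts), TSHR (0 to 2) and SLC5A5 (0 to 1) were at or near 0. The epithelial cadherin CDH1 was also near 0 (0 to 5 counts), as were the blood marker PTPRC (0) and the endothelial marker CDH5 (0 to 2). The summed level of 3 tested blood markers of 12 listed was 1.86 to 3.10 CPM in DMSO and 2.56 to 4.01 CPM at 0.3 μM. The sum over 6 tested of 19 endothelial, fibroblast, melanocyte and neural markers, mostly COL1A1, was 451 to 626 CPM in DMSO and 385 to 569 CPM at 0.3 μM, so the ranges overlapped.

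A pair of libraries stood apart from the other 4. The root mean square distance between samples, in log2 CPM over all genes tested, was 0.363 to 0.420 for pairs that included DMSO replicate 2 and 0.367 to 0.420 for pairs that included 0.3 μM replicate 3, against 0.317 to 0.337 among the remaining 4 samples, which held both treatments. The mean distance was 0.357 between the treatments, 0.356 within DMSO and 0.358 within 0.3 μM. The excess of between over within was 1.33e-05 (exact two-sided permutation test, p = 1, where 0.1 is the smallest p that 3 against 3 can give). The 9 pairs that joined a sample at 1 μM with a sample at 0.3 μM were 0.417 to 0.499 apart, and the 0.420 between DMSO replicate 2 and 0.3 μM replicate 3 lay within that range. Gene list results that rest on DMSO replicate 2 or 0.3 μM replicate 3 are therefore given with and without them. Results by promoter motif are given for all 6 samples only.

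The promoters of 4 genes that recur in the results are shown, each with 1 match to a searched motif marked. Each is the 250 bases before the RefSeq transcription start (GRCh38.p14), read 5′ to 3′ along the gene, and capitals mark the motif letters. HSPA5 (chr9:125241344-125241593, minus strand) encodes the main chaperone of the endoplasmic reticulum, and its capitals are the endoplasmic reticulum stress element (ERSE), which joins 2 short boxes over a gap and was found in 0.0806% of all RefSeq promoters of 300 bases. TNFAIP3 (chr6:137867009-137867258, plus strand) encodes an inhibitor of NF-kB, with a site of the NF-kB consensus on the opposite strand (0.194% of promoters). CXCL8 (chr4:73740319-73740568, plus strand) encodes a neutrophil chemokine, with the AP-1 site TGANTCA (7.76%). SRSF5 (chr14:69766892-69767141, plus strand) encodes a splicing factor, with the ETS site CCGGAAGT (4.44%). Both strands were searched, and a match is a description of these letters only.
HSPA5: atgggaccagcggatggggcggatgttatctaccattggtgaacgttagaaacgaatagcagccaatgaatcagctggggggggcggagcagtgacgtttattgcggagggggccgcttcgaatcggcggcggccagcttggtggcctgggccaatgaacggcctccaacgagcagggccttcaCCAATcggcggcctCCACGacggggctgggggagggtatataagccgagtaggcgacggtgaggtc
TNFAIP3: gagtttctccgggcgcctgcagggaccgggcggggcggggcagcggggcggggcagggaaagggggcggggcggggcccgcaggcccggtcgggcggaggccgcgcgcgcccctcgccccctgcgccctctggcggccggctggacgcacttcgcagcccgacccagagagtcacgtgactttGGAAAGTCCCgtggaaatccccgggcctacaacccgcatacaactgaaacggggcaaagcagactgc
CXCL8: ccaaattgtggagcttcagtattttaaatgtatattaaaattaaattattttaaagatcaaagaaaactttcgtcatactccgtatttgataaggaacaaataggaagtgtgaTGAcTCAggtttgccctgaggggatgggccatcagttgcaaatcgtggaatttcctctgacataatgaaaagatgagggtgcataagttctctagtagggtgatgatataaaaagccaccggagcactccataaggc
SRSF5: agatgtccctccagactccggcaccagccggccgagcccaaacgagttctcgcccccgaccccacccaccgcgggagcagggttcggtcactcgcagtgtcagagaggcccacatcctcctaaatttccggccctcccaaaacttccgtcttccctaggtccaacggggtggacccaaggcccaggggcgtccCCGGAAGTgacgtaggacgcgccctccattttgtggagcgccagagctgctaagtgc

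No gene passed the test at 0.3 μM. Of 15762 genes tested by edgeR's quasi-likelihood test, 0 (0%) had an adjusted p under 0.05 by the Benjamini-Hochberg method, and 594 (3.77%) had an unadjusted p under 0.05, while 788 would be reached if p-values were spread evenly. Of these 594, 259 (1.64% of all genes tested) were higher and 335 (2.13%) lower at 0.3 μM. DESeq2 called 1 gene, GPR89A, and limma-voom 0. The groups did not overlap, with all 3 samples on one side, for 578 genes higher at 0.3 μM (3.67%) and for 741 lower (4.7%), and 50.3% of genes had a change above 0. At 1 μM against 0.3 μM, with no DMSO sample in the test, the same method called 911 of 15583 genes higher (5.85%) and 1052 lower (6.75%).

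**Figure D1:**
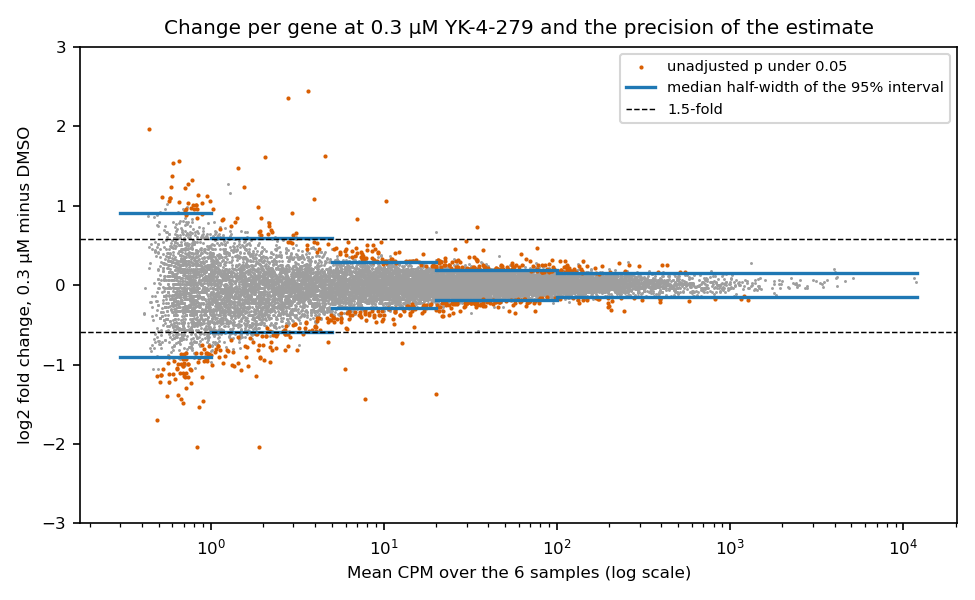
Each point is 1 of the 15762 genes tested, with its mean CPM over the 6 samples (x axis, log scale) and its log2 fold change at 0.3 μM minus DMSO (y axis). Orange points have an unadjusted p under 0.05, blue lines give the median half-width of the 95% interval in each range of expression (0.91 under 1 CPM, 0.15 over 100 CPM), and dashed lines mark 1.5-fold.

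For most genes the data bounded the change closely. The 95% interval of the fold change lay wholly within 1.5-fold in either direction for 11313 of the 15762 genes (71.8%), within 1.2-fold for 5049 (32%) and within 2-fold for 13818 (87.7%). A rise of more than 1.5-fold lay outside the interval for 13185 genes (83.7%) and a fall of more than 1.5-fold for 12682 (80.5%). For the other 1944 genes a 2-fold change in at least one direction remained inside the interval. The common biological coefficient of variation was 8.31%, and the median half-width of the interval was 0.24 on the log2 scale, or 1.18-fold.

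Expression level set this bound. The interval lay within 1.5-fold for 2291 of 2296 genes over 100 CPM (99.8%), 5528 of 5558 genes at 20 to 100 CPM (99.5%) and 2924 of 3250 genes at 5 to 20 CPM (90%). The share dropped to 570 of 3157 genes at 1 to 5 CPM (18.1%) and to 0 of 1501 genes under 1 CPM, of which 252 (16.8%) still had intervals within 2-fold. Over 100 CPM, 1865 genes (81.2%) had intervals within 1.2-fold. Conversely, a single changed gene would have needed a median change of 0.79 on the log2 scale (1.72-fold) to pass the adjustment over all genes, 0.49 (1.40-fold) over 100 CPM and 2.95 (7.71-fold) under 1 CPM. These are medians for a lone gene, so single genes needed more or less than this. They rest on the depth, on 3 samples of each treatment and on the adjustment over all genes.

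**Figure D2:**
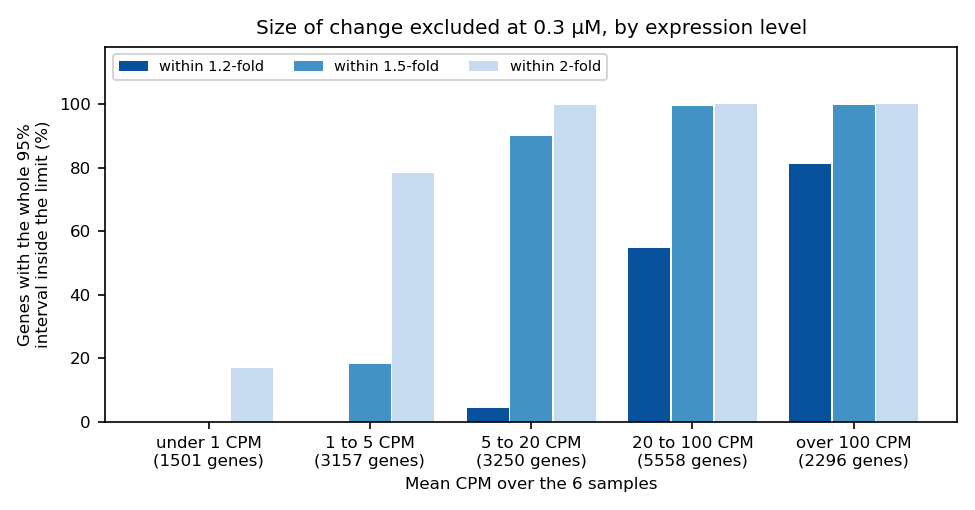
Bars give the percentage of genes (y axis, from 0) whose whole 95% interval at 0.3 μM lay within 1.2-fold, 1.5-fold or 2-fold of DMSO, in 5 ranges of mean CPM (x axis, with the number of genes). The share within 1.5-fold was 0% under 1 CPM, 18.1% at 1 to 5 CPM and at least 90% above 5 CPM.

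Housekeeping groups showed how tight these bounds were. EEF1A1, a translation elongation factor, had 11200, 11600 and 12000 CPM in DMSO and 11800, 11700 and 12200 at 0.3 μM, a change of 0.04 (95% interval −0.06 to 0.14). Of 78 cytosolic ribosomal protein genes, 76 had intervals within 1.5-fold, with a median change of −0.01. All 23 glycolysis genes (median −0.01) and all 26 targets of YAP and SRF, the factors of cell tension (median 0.04), had intervals within 1.5-fold. The same held for 29 of 31 proteasome subunits (median −0.02), 50 of 52 nuclear genes of oxidative phosphorylation (median −0.04) and 23 of 24 genes of cholesterol synthesis (median 0.00). The median over all genes tested was 0.00.

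The genes that the study tied to the compound were bounded as well. TERT (ENSG00000164362, chromosome 5, 1253147 to 1295069), the catalytic subunit of telomerase, had 6.29, 5.47 and 4.97 CPM in DMSO and 7.55, 6.11 and 6.13 CPM at 0.3 μM. The groups overlapped, with 1 DMSO sample above 2 of the 3 treated samples. The change was 0.24 (95% interval −0.11 to 0.59), so that a level below 0.928 of DMSO lay outside the interval, and the adjusted p by edgeR was 0.995. From 0.3 to 1 μM TERT fell by 1.02 on the log2 scale (edgeR quasi-likelihood test, adjusted p = 0.00142). Its change at 1 μM against DMSO was −0.78 (edgeR adjusted p = 0.00826). UBE2C, the ubiquitin-conjugating enzyme of mitotic exit, had 194, 194 and 191 CPM in DMSO and 188, 177 and 194 CPM at 0.3 μM, a change of −0.05 with a lower bound of 0.877-fold. It fell by 0.39 from 0.3 to 1 μM (edgeR adjusted p = 0.000805). Telomerase and shelterin genes had a median of −0.02 over 17 tested, and 15 had intervals within 1.5-fold.

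None of the 18 ETS factors tested, of 28 listed, had an unadjusted p under 0.05, and 17 had intervals within 1.5-fold, with a median of 0.05. ETS1 had 250, 270 and 255 CPM in DMSO and 259, 254 and 333 CPM at 0.3 μM, a change of 0.13 (−0.06 to 0.31). The third treated sample alone was high. ETV5 had a change of −0.02 (−0.18 to 0.14), ELK1 of 0.15 (−0.08 to 0.37), ETS2 of 0.08 (−0.15 to 0.31) and ELF3 of 0.08 (−0.27 to 0.43), while EHF had 0 to 2 counts and was not tested. The partner RNA helicases DHX9 and DDX5 had changes of −0.10 (−0.26 to 0.06) and −0.12 (−0.28 to 0.03). Among 10623 tested protein-coding genes with a RefSeq promoter (82.3% of 12907), 926 (8.72%) held the ETS letters CCGGAAGT. Of these, 46.0% had a change above 0 and 91.8% an interval within 1.5-fold, against 52.8% above 0 among promoters without the letters, and the median changes were −0.01 and 0.01. At an unadjusted p under 0.05, 6 of the 926 were higher (0.648%) and 17 lower (1.84%), against 1.72% and 1.5% of promoters without the letters. For the other motifs, brackets give the share of all RefSeq promoters and then that of the 10623. The change was above 0 for 41.8% of 275 genes with the E2F letters TTTCCCGC (1.66%, 2.59%) against 52.5% without. It was above 0 for 44.1% of 1019 with the cell cycle element TTTGAA (15.4%, 9.59%) against 53.1%. The shares above 0 were 50.2% of 3874 with the NF-Y letters CCAAT (35.7%, 36.5%) against 53.4%. They were 55.1% of 477 with the AP-1 letters TGANTCA (7.76%, 4.49%) against 52.1%. The NF-kB consensus (0.194%, 0.198%) was held by 21, of which 47.6% were above 0 against 52.3%, with a median of −0.01. The ERSE (0.0806%, 0.132%) was held by 14, of which 78.6% were above 0 against 52.2%. At an unadjusted p under 0.05, 8 genes with the E2F letters were higher (2.91%, against 1.59% without) and 5 lower (1.82%, against 1.52%). With the NF-kB consensus 2 were higher (9.52%, against 1.61%) and 0 lower, and with the ERSE 0 were higher and 0 lower. With TTTGAA 1.28% were higher and 2.06% lower, against 1.67% and 1.47% without. With CCAAT 1.32% were higher and 1.7% lower, against 1.81% and 1.42%. With TGANTCA 1.68% were higher and 1.68% lower, against 1.63% and 1.52%. The motif shares come from the fit of all 6 samples. They were not recomputed without the libraries that stood apart or after a correction for GC content.

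Migration and invasion genes were likewise close to DMSO. Of 43 tested, 40 had intervals within 1.5-fold and the median was 0.03. At an unadjusted p under 0.05, 1 was higher (2.33%, against 1.64% of all genes) and 0 lower. That gene was LAMB3, a laminin chain of the basement membrane, with 416, 377 and 386 CPM in DMSO and 492, 401 and 521 CPM at 0.3 μM (change 0.26, 0.09 to 0.44), where the groups overlapped. FN1, fibronectin, had 3910, 3530 and 3580 CPM in DMSO and 5290, 3840 and 3530 CPM at 0.3 μM, with a single high sample and a change of 0.20 (−0.02 to 0.42). Epithelial and mesenchymal state genes had a median of 0.06 over 21, and VIM, the mesenchymal filament vimentin, a change of 0.03 (−0.08 to 0.15).

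**Figure D3:**
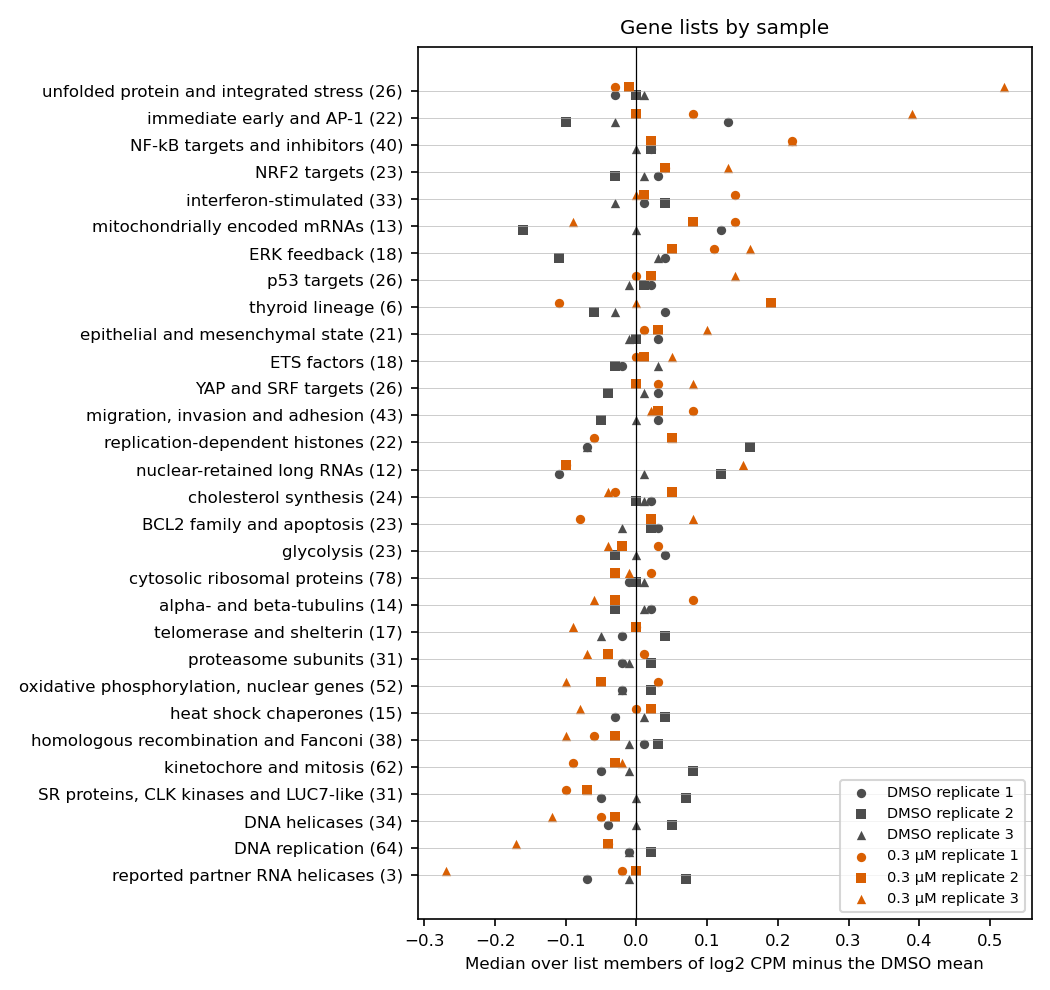
Each point is the median over a list's tested members (number in brackets) of log2 CPM minus the DMSO mean, for 1 sample. DMSO samples are grey, 0.3 μM samples orange, and shapes mark replicates. Unfolded protein and integrated stress genes sit near 0 in 5 samples and at 0.52 in 0.3 μM replicate 3, and NF-kB genes sit at 0.22 in replicates 1 and 3 and at 0.02 in replicate 2.

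Weak shifts of gene groups were seen, and NF-kB targets and inhibitors held the greatest share of members with an unadjusted p under 0.05 among lists of at least 20 tested. The lists were chosen with earlier results of these data known, and both doses share the DMSO samples as control. Both can raise the share of a list above that of all genes, so the shares describe these samples and were not tested. Of 40 tested members, 38 had a change above 0, 13 (32.5%) were higher at an unadjusted p under 0.05 and 0 lower, against 1.64% of all genes tested, and 0 passed the adjustment. The median change was 0.16, against 0.00 over all genes. In 3 of the 40 the groups did not overlap with 0.3 μM higher (against 3.67% of all genes), and replicate 2 of the treated samples stayed near DMSO. The list's median was 0.22, 0.02 and 0.22 in the 3 treated samples and 0.00 to 0.02 in DMSO. Without 0.3 μM replicate 3 the median was 0.12 with 8 higher, and without DMSO replicate 2 it was 0.17 with 8 higher.

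The members differed in which sample was high. LIF (ENSG00000128342, chromosome 22, 30240447 to 30246851), a cytokine of the interleukin 6 family, had 35.7, 27.3 and 32.6 CPM in DMSO and 44.6, 37.2 and 47.8 CPM at 0.3 μM, a change of 0.44 (0.20 to 0.68, edgeR adjusted p = 0.995). ICAM1 (ENSG00000090339, chromosome 19, 10270835 to 10286615), the adhesion receptor for leukocytes, had 59.7, 59.8 and 56.1 CPM against 81.9, 62.0 and 77.0 CPM, a change of 0.33 (0.13 to 0.53). The groups of both genes did not overlap, and in both the second treated sample was the closest to DMSO. LIF overlaps AC004264.1 on the other strand, and whether the counting used strand is not settled by the sources.

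IL1B, an inflammatory cytokine, had 8.52, 7.53 and 7.21 CPM in DMSO and 16, 9.28 and 8.73 CPM at 0.3 μM. PTGS2, the inducible cyclooxygenase, had 1.29, 1.06 and 1.42 CPM against 4.83, 1.61 and 1.04 CPM. SOD2, the mitochondrial superoxide dismutase, had 205, 216 and 199 CPM against 318, 212 and 222 CPM. In these 3 genes the first treated sample was far above the other 5. For CXCL8 (79.3, 88.4 and 81.5 CPM against 106, 82.3 and 123 CPM) and SQSTM1, the autophagy receptor p62 (280, 269 and 262 CPM against 314, 274 and 372 CPM), the third treated sample was the highest. TNFAIP3, whose promoter is shown above, had 24.5, 31.3 and 25.3 CPM in DMSO and 31.5, 26.4 and 37.6 CPM at 0.3 μM, a change of 0.23 (−0.03 to 0.50) with overlapping groups.

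CXCL1, CXCL2 and CXCL5, chemokines for neutrophils, were near DMSO at the lower dose and rose between the doses. CXCL1 had 96.4, 99.2 and 97.7 CPM in DMSO and 112, 87.9 and 106 CPM at 0.3 μM, a change of 0.06 (−0.12 to 0.24), and rose by 0.96 from 0.3 to 1 μM (edgeR quasi-likelihood test, adjusted p = 1.06e-05). CXCL2 had a change of 0.03 (−0.20 to 0.26) and rose by 1.00 (adjusted p = 2.22e-05), and CXCL5 one of 0.03 (−0.17 to 0.24) and rose by 0.90 (adjusted p = 3.06e-06). Over the list, 26 of 40 rose (against 5.85% of all genes) and 0 fell from 0.3 to 1 μM. Against DMSO, which both doses share as control, the medians were 0.16 at 0.3 μM and 0.62 at 1 μM.

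**Figure D4:**
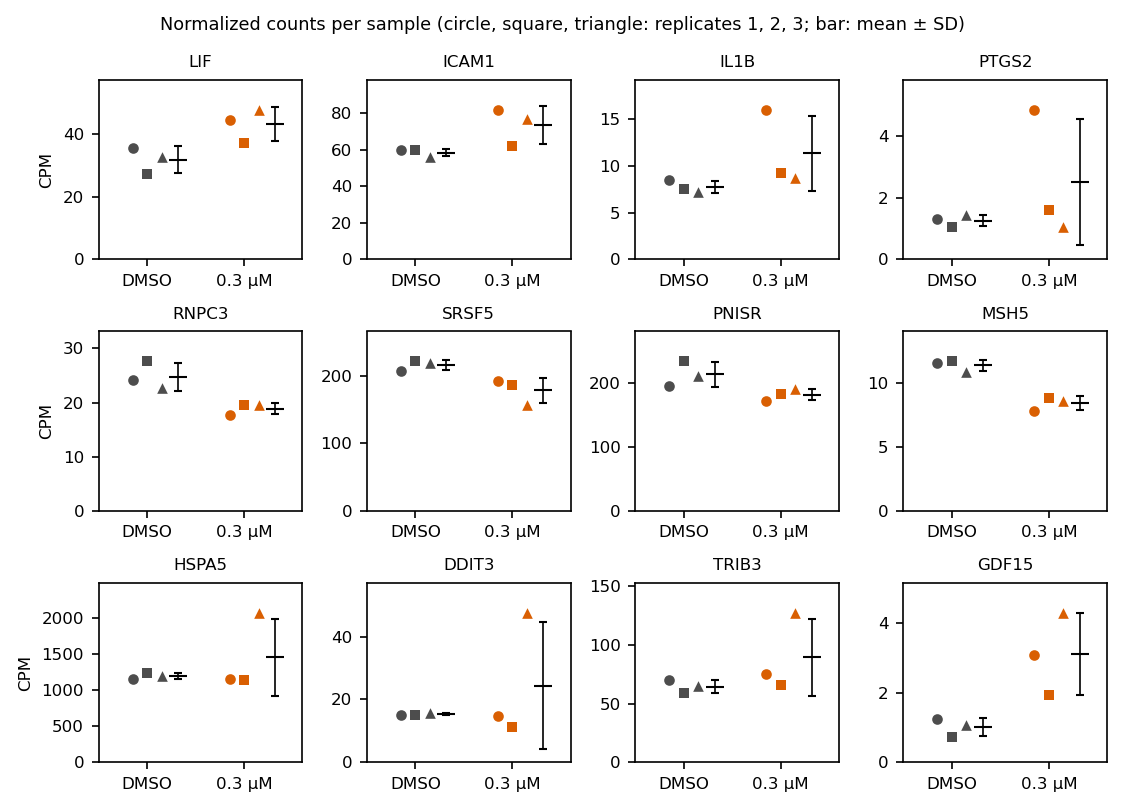
Normalized counts (CPM, y axes from 0) of 12 genes in the 3 DMSO samples (grey) and 3 samples at 0.3 μM (orange), with shapes for replicates and the mean ± SD beside them. LIF and ICAM1 separate the groups, IL1B and PTGS2 are high in replicate 1 at 0.3 μM, and HSPA5, DDIT3 and TRIB3 are high in replicate 3 alone.

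Immediate early and AP-1 genes, the first responders to growth signals and stress, had a change above 0 in 21 of 22 tested (95.5%, against 50.3% of all genes) and a median of 0.17. At an unadjusted p under 0.05, 4 were higher (18.2%, against 1.64%) and 0 lower. This shift leaned on both libraries that stood apart, with list medians of 0.08, 0.00 and 0.39 at 0.3 μM and −0.10 to 0.13 in DMSO. Without 0.3 μM replicate 3 the median was 0.04, with 16 above 0 and 1 higher. Without DMSO replicate 2 it was 0.12, with 15 above 0 and 3 higher. FOSL1, an AP-1 subunit, had 407, 337 and 362 CPM in DMSO and 452, 382 and 477 CPM at 0.3 μM (change 0.25, 0.07 to 0.42). DUSP1, a phosphatase that switches off MAP kinases, had 62.9, 59.3 and 64.4 CPM against 68.2, 66.1 and 97.7 CPM (change 0.31, 0.07 to 0.56), with groups that did not overlap. JUN was level (change −0.02, −0.17 to 0.12). From 0.3 to 1 μM, 9 of the 22 rose (against 5.85% of all genes) and 0 fell.

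ERK feedback genes, which mark the output of that kinase, had a change above 0 in 15 of 18 tested and a median of 0.08, with 3 higher (16.7%, against 1.64% of all genes) and 0 lower at an unadjusted p under 0.05. The list's medians in single samples did not overlap between treatments (0.05 to 0.16 at 0.3 μM, −0.11 to 0.04 in DMSO). DUSP4, a nuclear MAP kinase phosphatase, had 3.94, 3.68 and 4.02 CPM in DMSO and 5.05, 5.33 and 6.30 CPM at 0.3 μM, a change of 0.52 (0.15 to 0.89), and all 3 treated samples were above all 3 DMSO samples. DUSP6 and CCND1, other readouts of ERK, had changes of 0.01 (−0.26 to 0.28) and 0.03 (−0.10 to 0.16). Without DMSO replicate 2 the list's median was 0.04, without 0.3 μM replicate 3 it was 0.08, and in either case 1 member was higher.

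A stress programme was high in a single treated library. Of 26 unfolded protein and integrated stress genes, 24 had a change above 0 and the median was 0.18, yet the medians of single samples were −0.03, −0.01 and 0.52 at 0.3 μM and −0.03 to 0.01 in DMSO. HSPA5 (ENSG00000044574, chromosome 9, 125234853 to 125241330), with the stress element shown above, had 1150, 1240 and 1200 CPM in DMSO and 1150, 1140 and 2070 CPM at 0.3 μM. DDIT3, the stress factor CHOP, had 15, 15.2 and 15.6 CPM against 14.6, 11.2 and 47.5 CPM. TRIB3, a pseudokinase induced by CHOP and ATF4, had 69.6, 58.7 and 64.7 CPM against 74.8, 65.8 and 127 CPM. In all 3 genes the first 2 treated samples lay at, near or below the DMSO range and the third far above it.

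Other members followed the same sample. HERPUD1, which serves degradation of misfolded proteins, had 63.5 to 74.7 CPM in DMSO and 59.7, 63.8 and 116 CPM at 0.3 μM, and DDIT4, an inhibitor of mTORC1, had 38.6 to 43.0 CPM against 42.8, 35.2 and 78.1 CPM. ASNS, asparagine synthetase, was below DMSO in the first 2 treated samples and above it in the third, with 9.46, 9.37 and 9.05 CPM against 5.56, 6.5 and 17.4 CPM. Without 0.3 μM replicate 3, 11 of 26 members had a change above 0, the median was −0.03, and 24 intervals lay within 1.5-fold, against 17 with it. MYC, outside this list, was high in the same sample (129, 111 and 121 CPM in DMSO; 110, 116 and 208 CPM at 0.3 μM). Heat shock chaperones of the cytosol were not, with medians of 0.00, 0.02 and −0.08 at 0.3 μM. What set this library apart was not tested.

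Splicing regulators showed a small shift in the other direction, which kept its sign without either library that stood apart. Among 31 SR proteins, CLK kinases, which phosphorylate them, and LUC7-like factors, 27 had a change below 0, and 6 (19.4%) were lower and 0 higher at an unadjusted p under 0.05, against 2.13% lower over all genes. For 7 of the 31 (against 4.7% of all genes) all treated samples were below all DMSO samples, and the list's medians did not overlap (−0.10 to −0.07 at 0.3 μM, −0.05 to 0.07 in DMSO). The median change was only −0.07, and 30 of 31 intervals lay within 1.5-fold. It was −0.05 with 7 lower without 0.3 μM replicate 3, and −0.05 with 4 lower without DMSO replicate 2. These genes were low in GC, with a median of 44.1% against 49.4% over all genes, and after a correction for each sample's trend with GC the median was −0.06.

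RNPC3 (ENSG00000185946, chromosome 1, 103525691 to 103555239), a protein of the minor spliceosome, had 24.1, 27.6 and 22.6 CPM in DMSO and 17.7, 19.5 and 19.5 CPM at 0.3 μM, a change of −0.39 (−0.62 to −0.17, edgeR adjusted p = 0.995). It overlaps AMY2B on the same strand. SRSF5 (ENSG00000100650, chromosome 14, 69726900 to 69772005), whose promoter is shown above, had 207, 221 and 219 CPM against 192, 186 and 157 CPM, a change of −0.27 (−0.44 to −0.11). PNISR, a nuclear protein rich in serine and arginine, had 194, 233 and 211 CPM against 172, 182 and 190 CPM, a change of −0.23 (−0.39 to −0.07). In each of these genes the groups did not overlap. LUC7L, LUC7L3 and RBM25 had changes of −0.23, −0.18 and −0.16, and their groups did not overlap either.

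From 0.3 to 1 μM, 14 of the 31 fell (against 6.75% of all genes) and 2 rose, among them RNPC3 (by −0.59, edgeR adjusted p = 0.00237) and PNISR (by −0.67, adjusted p = 3.94e-05). SRSF5 differed by −0.23 between the doses (adjusted p = 0.0769) and SRSF1 rose by 0.72 (adjusted p = 0.00178), having had a change of −0.21 (−0.51 to 0.09) at 0.3 μM. Both changes of SRSF1 use the same 0.3 μM samples, with opposite sign. NEAT1, the long RNA that builds paraspeckles, had 244, 325 and 242 CPM in DMSO and 214, 196 and 236 CPM at 0.3 μM, a change of −0.33 (−0.54 to −0.12), and fell by 0.74 from 0.3 to 1 μM (edgeR adjusted p = 0.00278). The nuclear-retained RNAs as a group had a median of 0.00 over 12 tested, with 6 below 0, and medians in single samples of −0.10, −0.10 and 0.15 at 0.3 μM and −0.11 to 0.12 in DMSO. The median was −0.09 with 11 below 0 when 0.3 μM replicate 3 was left out, and without DMSO replicate 2 it was 0.04 with 5 below 0.

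Genes of DNA replication were close to DMSO with a small downward lean. All 64 tested had intervals within 1.5-fold, against 71.8% of all genes tested and 99.5% of those at 20 to 100 CPM. Even so, 56 of 64 had a change below 0, with a median of −0.09, and 4 were lower (6.25%, against 2.13% of all genes) and 0 higher at an unadjusted p under 0.05. The shift leaned on 1 treated library, and the medians of single samples were −0.04, −0.04 and −0.17 at 0.3 μM and −0.01 to 0.02 in DMSO. Without 0.3 μM replicate 3 the median was −0.03, with 45 below 0 and 0 lower, and without DMSO replicate 2 it was −0.07, with 1 lower. CDC7, the kinase that fires replication origins, had 42.4, 49.3 and 44.2 CPM in DMSO and 38.9, 40.2 and 39.7 CPM at 0.3 μM (change −0.19, −0.37 to −0.01). FEN1, the flap endonuclease, was low in the third treated sample alone, with 149, 161 and 154 CPM against 159, 147 and 104 CPM. CDT1, the licensing factor, went the other way, with 105, 85.4 and 102 CPM against 105, 105 and 117 CPM (change 0.16, −0.02 to 0.34), and it fell by 0.58 from 0.3 to 1 μM (edgeR adjusted p = 6.31e-05). Its change at 1 μM against DMSO was −0.43 (edgeR adjusted p = 0.00169). In all, 24 of the 64 fell (against 6.75%) and 0 rose between the doses.

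Related lists showed smaller counts. Kinetochore and mitosis genes had a median of −0.07 over 62, with 3 lower (4.84%, against 2.13% of all genes) and 0 higher at an unadjusted p under 0.05, and 59 intervals lay within 1.5-fold. Without DMSO replicate 2 the median was −0.03, with 0 lower and 2 higher. CENPK, a kinetochore subunit, had 59.6, 65.6 and 59.1 CPM in DMSO and 50.1, 54.2 and 53 CPM at 0.3 μM (change −0.23, −0.40 to −0.06), whereas PLK1, a mitotic kinase, was higher in all 3 treated samples (change 0.11, −0.03 to 0.25). DNA helicases had a median of −0.07 over 34, with 2 lower (5.88%, against 2.13%) and 0 higher, and 32 intervals lay within 1.5-fold. None was lower and the median was −0.06 without 0.3 μM replicate 3, and without DMSO replicate 2 the median was −0.04, with 2 lower and 1 higher. DDX11, the helicase of sister chromatid cohesion, had 85.1, 86.8 and 82.2 CPM against 82.0, 70.9 and 63.5 CPM (change −0.23, −0.42 to −0.05) and fell by 0.67 from 0.3 to 1 μM (edgeR adjusted p = 0.000365). Genes of homologous recombination and the Fanconi pathway had a median of −0.06 over 38, with 1 lower (2.63%, against 2.13%), which became 3 without DMSO replicate 2. In the fit of all 6 samples that gene was MSH5, a meiotic MutS homologue, with 11.6, 11.7 and 10.9 CPM against 7.83, 8.83 and 8.62 CPM (change −0.43, −0.70 to −0.16). Its groups did not overlap, it fell by a further 1.13 from 0.3 to 1 μM (adjusted p = 0.000365), and it overlaps SAPCD1 on the same strand.

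The alpha- and beta-tubulins had a median of −0.01 over 14. TUBB had 2220, 2180 and 2200 CPM in DMSO and 2200, 2120 and 2110 CPM at 0.3 μM, a change of −0.04 (−0.15 to 0.07), and fell by 0.44 from 0.3 to 1 μM (edgeR adjusted p = 2.88e-05). TUBA1B had a change of −0.13 (−0.25 to −0.01), with groups that did not overlap. Replication-dependent histones had a median of 0.01 over 22 at 0.3 μM, but only 9 intervals lay within 1.5-fold (against 71.8% of all genes). Their median half-width was 0.53, against 0.24 over all genes. From 0.3 to 1 μM, 9 of the 22 rose (against 5.85% of all genes) and 0 fell.

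**Figure D5:**
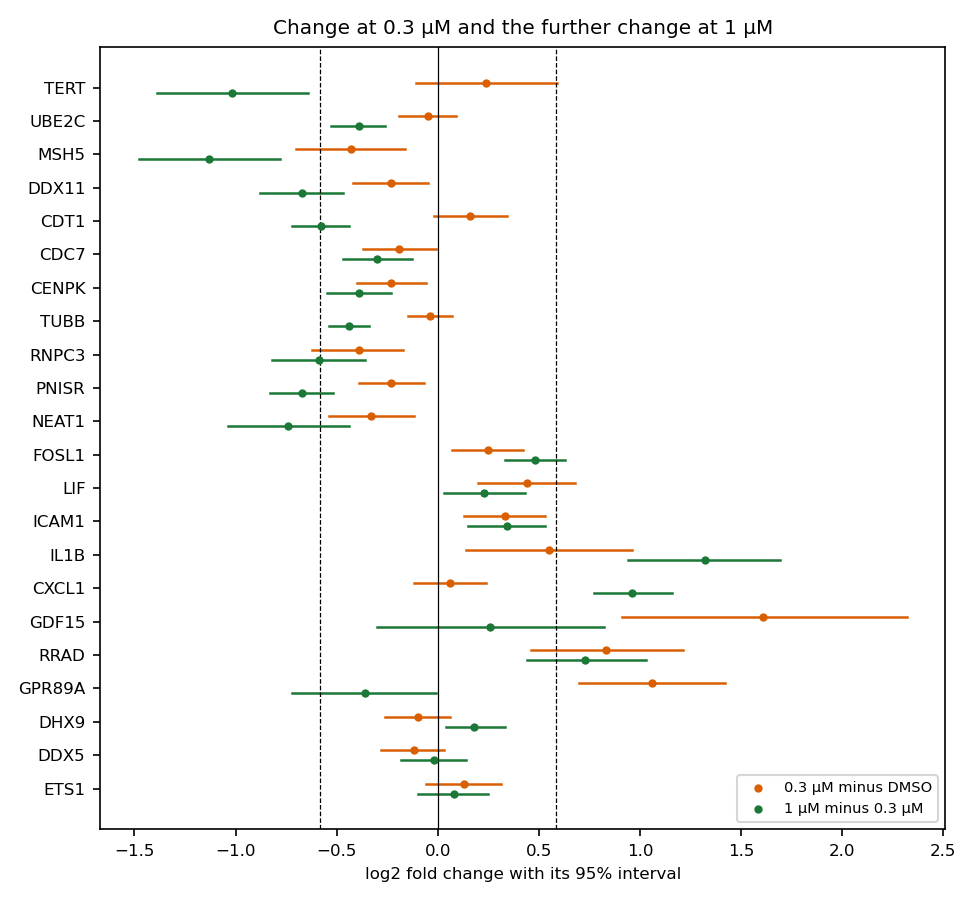
Points are log2 fold changes and lines their 95% intervals (x axis) for 22 genes, at 0.3 μM minus DMSO (orange) and at 1 μM minus 0.3 μM (green), with dashed lines at 1.5-fold. TERT, TUBB, CDT1 and CXCL1 have an orange interval that includes 0 and a green one that does not, and GDF15 the reverse. Both changes use the same 0.3 μM samples, with opposite sign.

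Targets of p53 had a median of 0.07 over 26, with 3 higher (11.5%, against 1.64% of all genes) and 0 lower at an unadjusted p under 0.05. In 6 of them the groups did not overlap with 0.3 μM higher (against 3.67% of all genes). GDF15, a stress cytokine, had 21, 13 and 18 counts in DMSO and 54, 35 and 74 counts at 0.3 μM, or 1.23, 0.725 and 1.06 CPM against 3.07, 1.94 and 4.28 CPM. All treated samples lay above all DMSO samples, and the change was 1.61 (0.91 to 2.32, edgeR adjusted p = 0.641). From 0.3 to 1 μM it differed by 0.26 (adjusted p = 0.578). CDKN1A, the cell cycle inhibitor p21, had 24.7, 24.5 and 24.4 CPM in DMSO and 28.3, 25.9 and 30.9 CPM at 0.3 μM (change 0.21, 0.01 to 0.42), and rose by 0.45 from 0.3 to 1 μM (edgeR adjusted p = 0.00282). Without 0.3 μM replicate 3 the list's median was −0.01 and 1 member was higher.

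In the BCL2 family and apoptosis list, 3 of 23 were higher at an unadjusted p under 0.05 (13%, against 1.64% of all genes), all of them genes that promote cell death, and the median was 0.00. BAK1, which permeabilizes mitochondria, had 31.3, 30.7 and 29.7 CPM in DMSO and 33.3, 33.9 and 40.7 CPM at 0.3 μM (change 0.23, 0.03 to 0.44). BCL2L11, which encodes BIM, had 7.93, 7.87 and 7.51 CPM against 9.48, 9.06 and 10 CPM (change 0.29, 0.01 to 0.57). The groups of both did not overlap, whereas those of BMF did. MCL1, a survival factor, had a change of 0.03 (−0.11 to 0.17). Without 0.3 μM replicate 3 none of the 3 was higher at an unadjusted p under 0.05.

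Single genes with the lowest p-values were partly genes with near-identical copies. GPR89A (ENSG00000117262, chromosome 1, 145607990 to 145670648), a Golgi anion channel, had the lowest adjusted p (0.143, edgeR quasi-likelihood test), with 119, 113 and 112 counts in DMSO and 251, 308 and 176 counts at 0.3 μM, a change of 1.06 (0.70 to 1.42). Its copy GPR89B went the other way, with 89, 205 and 181 counts against 176, 87 and 90 counts. Summed, they had 208, 318 and 293 counts in DMSO and 427, 395 and 266 counts at 0.3 μM, a change of 0.38 (0.04 to 0.72), and the groups overlapped. For CCZ1B and its copy CCZ1, which serve the maturation of endosomes, the sum kept the groups apart, with 483, 550 and 548 counts against 814, 772 and 727 counts, a change of 0.52 (0.33 to 0.71, edgeR adjusted p = 0.301). U2AF1L5, another gene with a near-identical copy, had 210, 1065 and 250 counts in DMSO and 190, 190 and 212 counts at 0.3 μM, and its sum with that copy was not tested.

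RRAD, a GTPase of the RGK family, had 5.88, 4.18 and 5.03 CPM in DMSO and 10.6, 7.28 and 8.97 CPM at 0.3 μM, a change of 0.83 (0.46 to 1.21, edgeR adjusted p = 0.641), and rose by 0.73 from 0.3 to 1 μM (adjusted p = 0.00284). KLF11, a zinc finger repressor, had 6.70, 6.03 and 6.98 CPM against 9.71, 9.83 and 8.39 CPM, a change of 0.50 (0.20 to 0.81). STAT5A, a signal transducer of cytokine receptors, had a change of 0.32 (0.11 to 0.52). In these 3 genes all treated samples were above all DMSO samples. On the lower side, MAGOHB, a core protein of the exon junction complex, had 25.0, 24.9 and 23.6 CPM in DMSO and 18.3, 19.4 and 18.5 CPM at 0.3 μM, a change of −0.39 (−0.59 to −0.18). PABPN1, which binds nuclear poly(A) tails, had 62.8, 73.5 and 56.6 CPM against 51.3, 51.3 and 49.1 CPM, a change of −0.35 (−0.54 to −0.15), and HMGN3, a nucleosome-binding protein, a change of −0.37 (−0.60 to −0.14). These were named because their p-values were among the lowest with groups that did not overlap, so the separation is a description.

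GC content moved with the treatment over all genes, and this rested on DMSO replicate 2. When genes were ranked by GC and cut into 5 equal parts, 37.7% had a change above 0 in the part of lowest GC, against 66.2% in the part of highest GC, with medians of −0.04 and 0.05. In single samples, the median of the part of highest GC was 0.11, −0.11 and 0.00 in DMSO and 0.11, 0.00 and 0.05 at 0.3 μM, with DMSO replicate 2 the lowest of the 6. Without DMSO replicate 2 the shares were 49.9% and 50.3%, and without 0.3 μM replicate 3 they were 34.1% and 65.7%. After a correction for each sample's trend with GC, the list medians were 0.15 for NF-kB genes (13 of 40 higher at an unadjusted p under 0.05), 0.13 for immediate early and AP-1 genes, 0.14 for unfolded protein and integrated stress genes and −0.09 for DNA replication genes. The median for homologous recombination and Fanconi genes, with a median GC of 43.7%, was −0.02 in place of −0.06, and that for DNA helicases, at 43.6% GC, was −0.04 in place of −0.07. ERK feedback genes kept a median of 0.08 but had 1 member higher at an unadjusted p under 0.05 in place of 3.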

How the data were processed

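Poly(A) RNA-seq profiled KHM-5M cells after 24 h of vehicle (DMSO) or of YK-4-279 at 0.3 or 1 μM, in 3 groups of 3 samples. The authors deposited, without normalization, whole-number read counts per gene for 58735 genes (19951 protein-coding), the gene length, and FPKM values, which the authors divided by gene length and library size and which were not tested here. The methods name Hisat2, GRCh38, HTseq and DESeq2, and the submitters' processing notes name HISAT2 2.0.5, featureCounts 1.5.0-p3 and DESeq2 1.20.0, so which program counted is not settled. The methods name a stranded kit and fewer biological replicates than the 3 per group that the labels give. The deposited fold changes, p-values and group means of the authors' own comparisons were not used.

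Counts were fitted with edgeR 4.0.16 (filterByExpr, minimum count 10; TMM; glmQLFit and glmQLFTest; Benjamini-Hochberg adjustment over all genes tested) in R 4.3.3, on the 6 samples of the groups compared. The 95% interval of a change is the estimate ± the t quantile times its standard error, taken as the estimate over the square root of F. The change a lone gene needs to pass is that whose p survives the adjustment at first rank. Log2 values for distances and sample medians used a prior count of 2. Mean GC content of reference transcripts was available for 99.5% of genes. The steps were tested on simulated data. Figures used Python 3.11.15 and matplotlib 3.10.9.

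The comparison and the 32 gene lists were chosen with earlier results of these data known, so lists are described by counts and medians and not tested. Genes were named by rule: among genes of at least 5 CPM whose groups do not overlap, the 8 with the lowest p in each direction; genes the study discusses; of each list, the most abundant member and those with the lowest p in each direction; the genes with the narrowest and widest intervals; and the gene with the lowest adjusted p. Other list members named, such as those shown for a library that stood apart, and the copies of named genes were chosen after their values were seen. The restriction of promoter motifs to protein-coding genes and the endoplasmic reticulum stress element were added after seeing the data. Alternatives were DESeq2 1.42.0, limma-voom (limma 3.58.1), RLE size factors, no filter, all 9 samples, a block for the replicate number, omission of each sample in turn, and corrections for gene length and GC (lowess, span 0.3). Samples sharing a replicate number had deviations correlated at 0.091, 0.0717 and 0.025, so the numbers were not taken to pair the samples. Within groups, the counts of every pair of samples differed by more than sampling noise, with chi-square values of 3.2 to 10.7 for each degree of freedom.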

Additional observations from a re-analysis of the deposited data

How the results depend on the processing

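The count of 0 calls at 0.3 μM held under limma-voom, RLE size factors, all 9 samples and the length and GC corrections. DESeq2 gave 1 call (GPR89A, adjusted p = 0.00346), also 1 among protein-coding genes with a change over 1.5-fold, a median half-width of 1.53 over 32386 genes, and 391 genes at an unadjusted p under 0.05 (197 lower). With no filter edgeR gave 30 calls, 11 of them protein-coding with a change over 1.5-fold, a half-width of 1.14, and 1323 genes at an unadjusted p under 0.05 (692 higher, 631 lower). The cause of these 30 calls was not tested; they include U2AF1L5, HSPA5, TRIB3 and DDIT3, each high in 1 library, beside LIF, RRAD and NEAT1. The study's threshold can be read as an adjusted or an unadjusted p: of protein-coding genes with a change over 1.5-fold, 0 passed with the adjusted p and 71 with the unadjusted p, both by edgeR. Intervals within 1.2-fold held for 5049 genes, against 11313 within 1.5-fold.

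The replicate block gave 1 call, protein-coding and over 1.5-fold (GPR89A, edgeR adjusted p = 0.0418), and 1004 genes at an unadjusted p under 0.05, of which 523 were higher. Each sample correlated best with the sample of its own number in the other group, a hint from the data and not from the design. Leaving out each sample in turn gave 0 to 4 calls, 0 to 3 of them protein-coding and over 1.5-fold. The 4 came without 0.3 μM replicate 3 (CCZ1B, GPR89A, MTX1P1 and RGPD6), and 1 without DMSO replicate 2 (STAG3L1). Genes at an unadjusted p under 0.05 ranged from 429 to 1068, with 216 to 600 higher (600 without DMSO replicate 1, 411 without 0.3 μM replicate 2) and 209 to 468 lower (209 without DMSO replicate 2). The 1963 calls at 1 μM against 0.3 μM ranged from 948 to 1884 (948 without 1 μM replicate 3, 1118 without 1 μM replicate 2, 1164 without 1 μM replicate 1, 1253 without 0.3 μM replicate 2). Of 448 list medians recomputed, 434 moved by less than the spread between samples. Depth and the number of samples limit what can be said of low genes: under 1 CPM, 0 of 1501 intervals lay within 1.5-fold.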

Other observations

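Gene groups not described above were close to DMSO. Of 23 NRF2 targets, which answer oxidative stress, 19 had a change above 0 with a median of 0.10, and the medians of single samples were 0.04, 0.04 and 0.13 at 0.3 μM and −0.03 to 0.03 in DMSO. Without 0.3 μM replicate 3 the median was 0.04. Interferon-stimulated genes had a median of 0.09 over 33 tested, with single-sample medians of 0.14, 0.01 and 0.00 at 0.3 μM, so that the first treated sample alone was high. IFITM3, an antiviral membrane protein, had 142, 107 and 133 CPM in DMSO and 161, 134 and 146 CPM at 0.3 μM, with overlapping groups. The 13 mitochondrially encoded mRNAs had a median of 0.08 and single-sample medians of −0.16 to 0.12 in DMSO and −0.09 to 0.14 at 0.3 μM.

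Noncoding biotypes lay slightly below DMSO. Of 802 antisense genes tested, 39.5% had a change above 0, and of 591 lincRNAs 38.6%, against 52.6% of protein-coding genes. Among all genes tested, those of low expression leaned the same way, with 46.3% above 0 under 1 CPM and 43.5% at 1 to 5 CPM. The median half-width of the interval was 0.72 for antisense genes, 0.67 for lincRNAs and 0.22 for protein-coding genes. Biotype was not separated from expression level. In single samples the lincRNA median was −0.01, −0.04 and −0.15 at 0.3 μM and 0.00, 0.04 and −0.04 in DMSO, lowest in 0.3 μM replicate 3.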
